A study of Mus musculus with 3 samples.

Results

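Of the 36167 features counted in nuclei of newborn mouse aortic valve structures, 10 genes of the sensing of and the response to blood flow were followed: the transcription factors Klf2 and Klf4, the endothelial nitric oxide synthase Nos3, the vasoconstrictor peptide gene Edn1, the membrane protein Heg1, and the channel genes Piezo1, Piezo2, Trpv4, Pkd1 and Pkd2. They were taken by name from the deposited tables, and all 10 had counts. The samples were 3 pools of aortic valve structures from pups at postnatal day 1, each made from 22 to 24 aortic roots, and all 3 belonged to 1 group, so no pool was treated and none served as a control. All pools carried, on a B6.Cg background, the allele Scx<tm1.1(EGFP)Skom, which places EGFP at the tendon and connective tissue gene Scx. RNA was read as unique molecular identifiers (UMIs) from nuclei with the gene expression part of the 10x Genomics Multiome assay, so the counts describe nuclear RNA of mixed animals and not protein or spliced transcript in the cytoplasm.

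Endothelial cells feel the drag of flowing blood through mechanically gated channels such as Piezo1 and Trpv4 and through the polycystins Pkd1 and Pkd2, which can sit on the primary cilium. Sustained laminar flow is known to raise Klf2 and Klf4 through a kinase cascade of MEKK3, MEK5 and ERK5 that ends on MEF2 factors, while Heg1 and the CCM proteins set the activity of that cascade. Klf2 and Klf4 in turn are known to raise Nos3, the source of the relaxing signal nitric oxide, and to lower Edn1, the constricting peptide endothelin-1. In developing valves, Klf2 in the endothelium is known to drive the secreted factor Wnt9b, and Piezo1 is required for normal outflow valves.

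The promoters of 3 members are shown because their levels are set side by side below: Klf2 and Klf4, which were high in the same endothelial subset, and Edn1, which was low in nuclei with Klf4. Promoters were taken from RefSeq (build GRCm38.p6, 250 bases before to 50 bases after the gene start, written 5′ to 3′ along the gene), where 8 of the 10 members matched. The counts themselves were made on another build, GRCm39, so these coordinates locate only the printed windows. Capitals mark matches, on either strand, to the MEF2 core (CTA and TAG with any 4 bases between them), the KLF box CACCC, the shear stress element GAGACC and the GATA site AGATAA. No match overlapped another in these windows. Klf2 lies at chr8:72318812-72319111 on the + strand, Klf4 at chr4:55532426-55532725 on the - strand and Edn1 at chr13:42301226-42301525 on the + strand.
Klf2: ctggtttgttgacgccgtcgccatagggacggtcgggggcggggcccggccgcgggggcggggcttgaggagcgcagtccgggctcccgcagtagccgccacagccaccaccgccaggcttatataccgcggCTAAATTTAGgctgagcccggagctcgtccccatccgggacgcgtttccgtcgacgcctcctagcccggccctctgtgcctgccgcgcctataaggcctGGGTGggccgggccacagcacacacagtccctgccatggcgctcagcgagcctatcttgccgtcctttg
Klf4: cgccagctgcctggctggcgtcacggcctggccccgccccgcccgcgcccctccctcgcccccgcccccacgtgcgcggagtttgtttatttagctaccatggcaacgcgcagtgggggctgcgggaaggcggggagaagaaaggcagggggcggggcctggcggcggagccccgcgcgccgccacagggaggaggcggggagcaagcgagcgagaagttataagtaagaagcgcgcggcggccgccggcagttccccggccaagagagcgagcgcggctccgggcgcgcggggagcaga
Edn1: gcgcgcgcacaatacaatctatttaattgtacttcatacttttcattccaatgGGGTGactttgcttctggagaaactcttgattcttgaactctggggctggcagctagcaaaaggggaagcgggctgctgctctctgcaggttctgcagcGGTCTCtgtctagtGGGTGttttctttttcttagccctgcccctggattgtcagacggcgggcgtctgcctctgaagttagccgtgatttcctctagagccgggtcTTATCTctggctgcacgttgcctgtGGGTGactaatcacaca

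The Klf2 window held 1 MEF2 core and 1 KLF box. It was the 1 window of the 8 matched members with a MEF2 core, a motif found in 3.69% of 32851 promoter windows of the same length. The Klf4 window held none of the 4 motifs. The Edn1 window held 3 KLF boxes, 1 shear stress element and 1 GATA site. A KLF box was present in 6 of the 8 member windows and in 57.5% of all windows, a shear stress element in 4 of 8 and in 16.4% of all windows, and a GATA site in 1 of 8 and in 11.2% of all windows. These are matches of letters, and binding was not measured.

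Nuclei with at least 1000 UMIs and at most 5% mitochondrial UMIs numbered 14073 of 21140 (7071, 3253 and 3749 in pools 1, 2 and 3). After removal of likely doublets 13182 remained, with a median of 4283, 4756 and 3340 UMIs in the 3 pools. Pools differed in quality: 28.6%, 41.8% and 14.1% of their deposited nuclei exceeded the mitochondrial limit. Between 44 and 99 barcodes were shared by each pair of pools. Nuclei were clustered without the members, and clusters were named from marker genes, so a class is called "like" its cell type. At least 20 nuclei in each pool were found for 10 classes, among them 3158 cardiomyocyte-like, 2901 smooth muscle-like, 2725 endothelial-like (endothelial and endocardial clusters together), 1490 valve interstitial-like, 1073 fibroblast-like, 366 mesothelial-like and 117 lymphatic endothelial-like nuclei. UMIs were summed per class and pool and are given as CPM, the count scaled to the library total. A CPM value mixes the share of nuclei that make a transcript with the amount in each, and since long genes give more nuclear UMIs, CPM is compared between groups for 1 gene and not between genes.

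Nos3 and Edn1 were found mainly in endothelial-like nuclei. Nos3 stood at 293, 263 and 252 CPM in pools 1, 2 and 3 in endothelial-like nuclei and at 152, 173 and 112 CPM in lymphatic endothelial-like nuclei. In the other 8 classes no pool exceeded 24.5 CPM, so the groups did not overlap. Edn1 stood at 264, 248 and 270 CPM in endothelial-like nuclei. Its next class, lymphatic endothelial-like, had 37.3, 102 and 42.0 CPM, below every endothelial-like value. When each nucleus was thinned to 1000 UMIs, a Nos3 UMI was found in 21.1% ± 2.29 (SD, n = 3 pools) of endothelial-like nuclei (median 4450 UMIs before thinning) in 0.905% ± 0.543 of cardiomyocyte-like nuclei (median 4931 UMIs), a cell type that can itself express the gene, and in 0.495% ± 0.458 of smooth muscle-like nuclei (median 3249 UMIs). Without thinning the endothelial-like share was 59.9% ± 6.62. For Edn1 the thinned shares were 20.2% ± 0.817, 1.23% ± 0.126 and 1.15% ± 0.604 in these 3 classes. No class is a certain negative for either gene.

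Klf2 and Klf4 were highest in 3 classes that line surfaces. Klf2 stood at 207, 207 and 135 CPM in endothelial-like nuclei, at 193, 183 and 91.1 CPM in lymphatic endothelial-like nuclei and at 132, 110 and 82.7 CPM in mesothelial-like nuclei, which cover the outer surface of the heart. The ranges of neighbours in this order overlapped, and fibroblast-like nuclei followed at 49.6, 53.6 and 26.3 CPM, below all 3. Klf4 had another order: 278, 193 and 161 CPM in lymphatic endothelial-like nuclei and 210, 155 and 165 CPM in mesothelial-like nuclei, against 81.6, 76.8 and 80.5 CPM in endothelial-like nuclei. Both of the first groups lay above every endothelial-like value. The median mitochondrial share of nuclei also differed between these classes, at 2.99%, 2.94% and 2.66% in mesothelial-like, 1.83%, 2.00% and 1.55% in lymphatic endothelial-like and 1.39%, 1.60% and 1.13% in endothelial-like nuclei. Mesothelial-like nuclei were also deeper, with a median of 6393 to 11986 UMIs against 3432 to 5024 in endothelial-like nuclei. The part of these measures in the Klf2 and Klf4 levels was not tested. Valve interstitial-like nuclei had 22.0, 22.8 and 14.4 CPM of Klf2 and 9.79, 10.8 and 8.34 CPM of Klf4.

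Klf2 was the member with the clearest difference between pools. Pool 3 held the lowest Klf2 level in 9 of the 9 classes with Klf2 counts, whereas endothelial-like Klf4 ranged only from 76.8 to 81.6 CPM. Pool 3 also had the lowest median UMI total and the smallest share of nuclei over the mitochondrial limit. Whether the Klf2 difference came with the animals or with the preparation cannot be told apart, since each pool was prepared once.

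Heg1, a receptor that recruits the CCM complex to endothelial junctions, was at 2023, 1767 and 1833 CPM in endothelial-like nuclei. Fibroblast-like nuclei came next at 670, 601 and 709 CPM, and lymphatic endothelial-like nuclei, at 288, 272 and 455 CPM, overlapped with the mesothelial-like and smooth muscle-like classes. Heg1 thus separated blood-facing from lymphatic endothelial-like nuclei without overlap, by 1875 ± 133 against 338 ± 102 CPM (mean ± SD, n = 3).

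The channel genes divided the classes differently. Piezo1 was at 332, 390 and 210 CPM in lymphatic endothelial-like nuclei, at 210, 188 and 190 CPM in endothelial-like nuclei and at 182, 163 and 195 CPM in mesothelial-like nuclei, and each of these ranges overlapped with the next. Trpv4, a calcium channel also opened by swelling and lipids, was sparse: 27.9, 21.7 and 22.8 CPM in endothelial-like nuclei, from 361 UMIs in all. Lymphatic endothelial-like nuclei (37.3, 17.0 and 49.0 CPM, from 23 UMIs) and macrophage-like nuclei (22.9, 18.1 and 14.0 CPM, from 29 UMIs) overlapped with them. No pool of the valve interstitial-like, smooth muscle-like, fibroblast-like or cardiomyocyte-like class exceeded 4.43 CPM of Trpv4.

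Piezo2, the channel of touch and proprioception, was found mainly outside the blood-facing endothelium. It stood at 471, 519 and 378 CPM in lymphatic endothelial-like nuclei, above every other class. Valve interstitial-like nuclei had 211, 289 and 254 CPM, pericyte-like nuclei 260, 290 and 192 CPM and fibroblast-like nuclei 253, 184 and 239 CPM, with overlapping ranges. Endothelial-like nuclei had 32.1, 30.8 and 55.1 CPM. Piezo2 made up 16.6% ± 5.15 (SD, n = 3) of all Piezo1 and Piezo2 UMIs in endothelial-like nuclei, 60.0% ± 3.79 in lymphatic endothelial-like nuclei and 81.7% ± 4.0 in valve interstitial-like nuclei. The endothelial-like share ranged from 13.2% to 22.5% and the valve interstitial-like share from 77.1% to 84.6%, and the ranges did not overlap. Pericyte-like nuclei had a higher share still, 89.4% ± 2.10 (87.8% to 91.8%), and fibroblast-like nuclei had 69.1% ± 4.82. The share is compared between classes only, since gene length affects how many UMIs each gene gives.

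Pkd2 was highest in the valve interstitial-like class. It was at 376, 330 and 352 CPM in valve interstitial-like nuclei, above every pool of the next class, the fibroblast-like nuclei at 271, 274 and 290 CPM. Endothelial-like nuclei had 171, 141 and 176 CPM. Pkd1 was at 240, 214 and 155 CPM in smooth muscle-like nuclei, 224, 202 and 159 CPM in valve interstitial-like nuclei and 158, 130 and 119 CPM in endothelial-like nuclei. The ranges of the first 2 classes overlapped, the smooth muscle-like range also overlapped the endothelial-like one, and Pkd1 was lowest in pool 3 in all 3 of these classes.

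**Figure D1:**
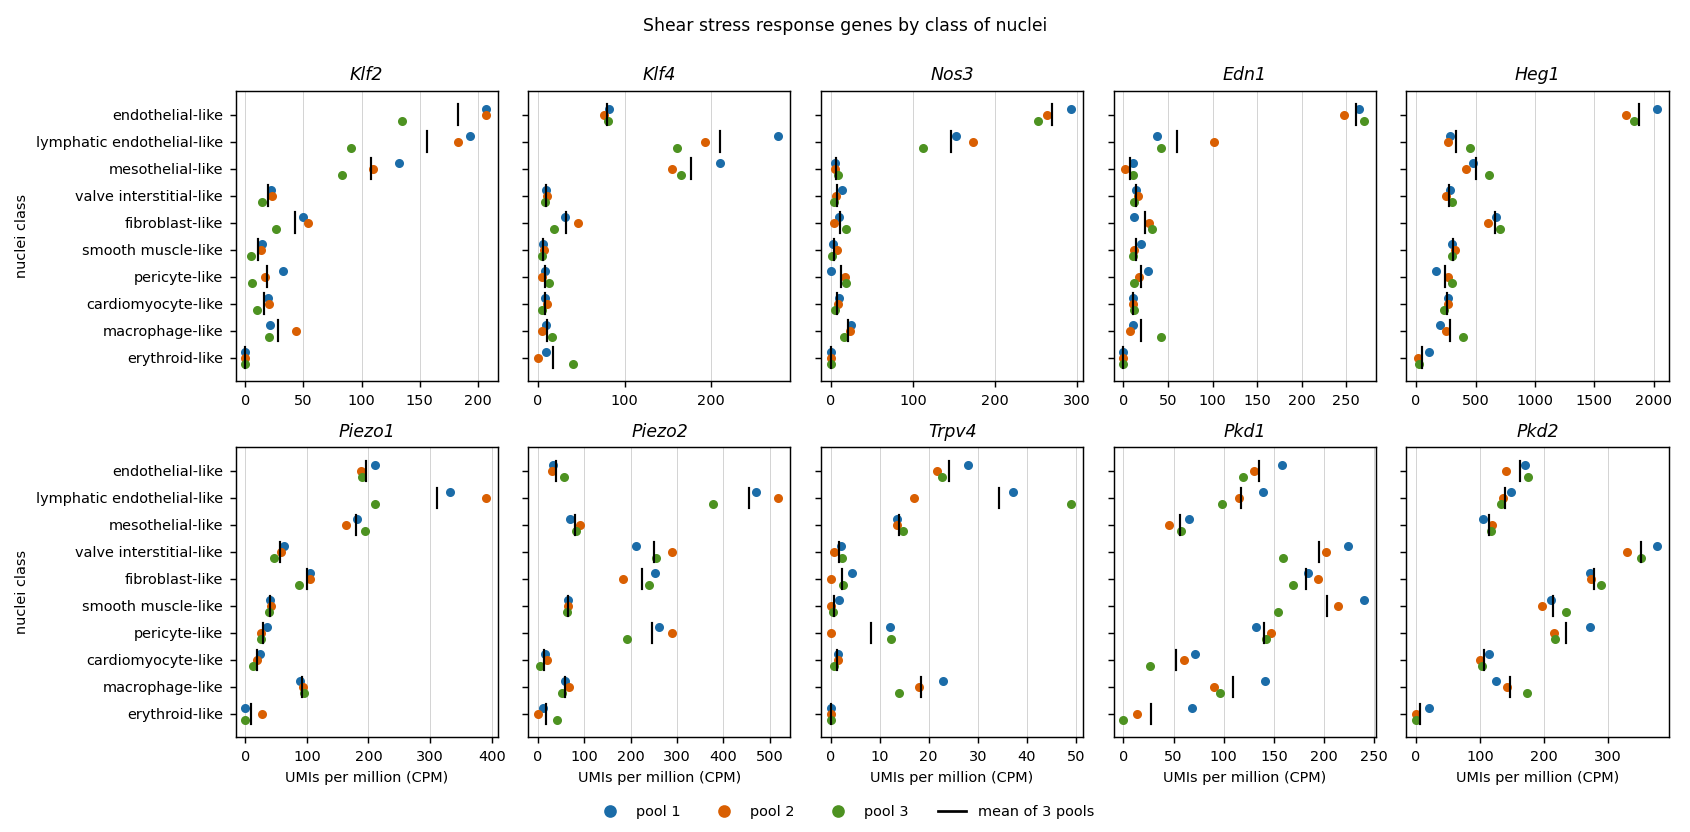
Level of each of the 10 genes (x axis, CPM; each panel has its own linear scale) in 10 classes of nuclei (y axis), with 1 point per pool and a black line at the mean of the 3 pools. Nos3, Edn1 and Heg1 peak in endothelial-like nuclei, Klf4, Piezo1 and Piezo2 in lymphatic endothelial-like nuclei (Piezo2 at 378 to 519 CPM), and Pkd2 in valve interstitial-like nuclei (330 to 376 CPM).

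**Figure D2:**
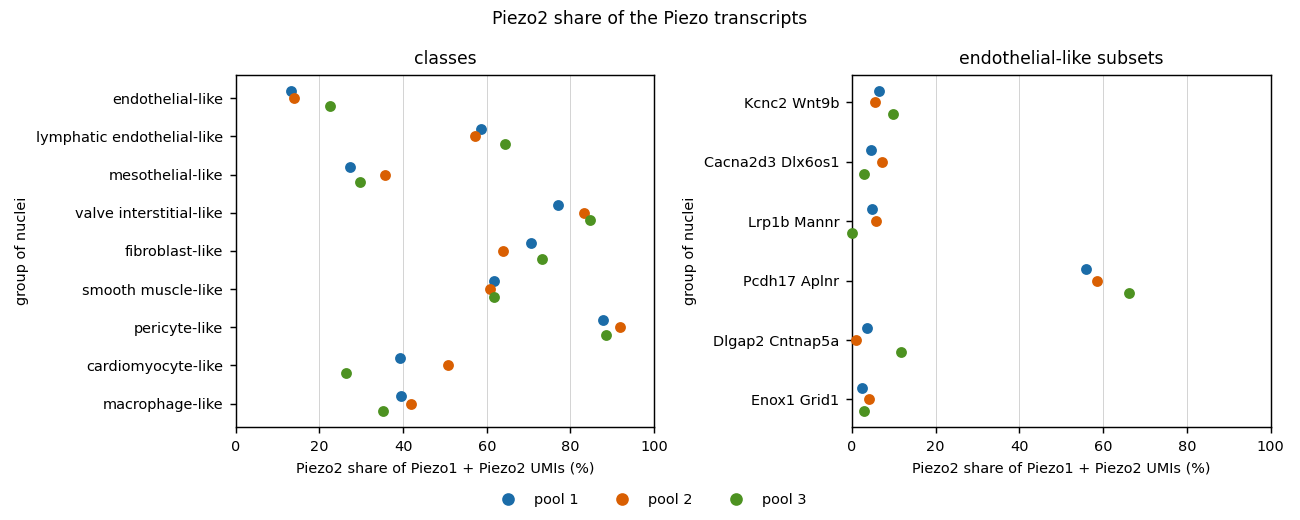
Piezo2 UMIs as a percentage of Piezo1 plus Piezo2 UMIs (x axis) in 9 classes (left) and 6 endothelial-like subsets (right), 1 point per pool; the erythroid-like class, with 6 such UMIs in all, is not drawn. Pericyte-like nuclei lie highest, between 87.8% and 91.8%. Valve interstitial-like nuclei lie between 77.1% and 84.6% and endothelial-like nuclei between 13.2% and 22.5%, and within the endothelium the Pcdh17 Aplnr subset lies at 55.9% to 66.1%.

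Each class was then tested against the mean of the others with edgeR's quasi-likelihood test on the summed counts, pool as a block, over 13901 genes, with Benjamini-Hochberg adjustment at 0.05. Differences are on the log2 scale. All 10 members differed among the classes, as did 88.8% of all genes. In endothelial-like nuclei 7 of the 10 members were higher, where 23.0% of all genes were called higher: Nos3 by 5.24 (SE 0.18), Edn1 by 4.68, Klf2 by 3.44, Trpv4 by 2.94, Heg1 by 2.58, Klf4 by 1.75 and Piezo1 by 1.62. Piezo2 was lower, by a log2 difference of -1.45, where 6.80% of all genes were called lower. Pkd1 and Pkd2 were not called. The members had been listed as flow genes with earlier results of these nuclei known, so this direction is not independent support for the list. Nor was it particular to this class. Lymphatic endothelial-like nuclei had 7 members higher and 0 lower, with a median difference of 2.41 against 0.13 over all genes. In endothelial-like nuclei these medians were 2.17 and 0.26. Fibroblast-like nuclei had 5 higher and 0 lower, and mesothelial-like nuclei 5 higher and 1 lower.

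These differences depended in size on the smallest class. The erythroid-like class (73 nuclei) held 0 UMIs of Klf2, Nos3, Edn1 and Trpv4, which makes a mean that includes it undefined on a log scale for these genes. In the same fit without that class, added after this was seen and tested over 14146 genes, the endothelial-like differences were 4.38 ± 0.14 (SE) for Nos3, 3.76 ± 0.16 for Edn1, 2.42 ± 0.09 for Klf2, 2.42 ± 0.10 for Heg1, 2.22 ± 0.20 for Trpv4, 1.84 ± 0.14 for Klf4, 1.40 ± 0.09 for Piezo1 and -1.63 ± 0.19 for Piezo2. Pkd2 then was called lower, at -0.24 ± 0.09 (edgeR adjusted p = 0.0323), and Pkd1 was not called (0.14 ± 0.11, adjusted p = 0.38). Leaving the class out also moved the median difference of all genes from 0.26 to 0.02. In this fit 19.8% of all genes were called higher and 14.9% lower in endothelial-like nuclei.

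In valve interstitial-like nuclei, the mesenchymal cells inside the leaflets, 3 members were higher: Piezo2 by 1.57, Pkd2 by 1.39 and Pkd1 by 0.82 (edgeR adjusted p at most 0.05; 20.9% of all genes were called higher). Klf4, at -1.63, and Heg1, at -0.48, were lower, where 7.47% of all genes were called lower; without any 1 of the pools, or without the pool block, the Heg1 call was lost (adjusted p between 0.0933 and 0.191). Without the erythroid-like class all 10 members were called, with the same 3 higher and 7 lower, where 18.2% of genes were higher and 14.4% lower. Trpv4 was then at -2.08 ± 0.44 (SE), Klf2 at -1.19 ± 0.16, Nos3 at -1.09 ± 0.31 and Edn1 at -0.92 ± 0.30.

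In smooth muscle-like nuclei Pkd1 was higher by 1.01 and Pkd2 by 0.73 (26.2% of all genes were called higher), and Klf4, at -2.26, and Piezo1, at -0.78, were lower (8.67% were called lower). The erythroid-like class held 2 Piezo1 UMIs, both in pool 2. Without pool 2 the Piezo1 difference was 0.16 and not called, and without the erythroid-like class it was -1.04 ± 0.12 (SE). In that last fit 9 members were called, 2 higher and 7 lower, where 21.8% of genes were higher and 20.6% lower. Trpv4 was at -2.65 ± 0.40, Nos3 at -2.57 ± 0.34 and Klf2 at -1.98 ± 0.16.

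Genes that work beside the members were counted on 5 lists, here in the fit without the erythroid-like class. Of 16 known targets of Klf2 and flow, 11 were higher and 1 lower in endothelial-like nuclei, where 19.8% of all genes were higher and 14.9% lower, with a median difference of 2.11 against 0.02 over all genes; the fit with all classes gave 11 higher and 0 lower. The list does not separate targets by the direction in which flow moves them, so the counts do not measure a response to flow. In lymphatic endothelial-like nuclei the fit with all classes gave 12 higher and 1 lower, with a median difference of 1.79 against 0.13 over all genes. The levels that follow are again of endothelial-like nuclei. Wnt9b was at 36.9 ± 6.25 CPM (mean ± SD, n = 3) in endothelial-like nuclei and at no more than 1.34 CPM in any valve interstitial-like or smooth muscle-like pool. Gja5, the arterial connexin 40, was higher by 4.46 ± 0.15 (SE), and Thbd, the anticoagulant receptor thrombomodulin, by 2.76 ± 0.13. The 1 lower gene was Angpt2, at -0.89 ± 0.22.

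Of 15 other channels and sensors, 7 were higher and 3 lower in endothelial-like nuclei, where 19.8% of all genes were higher and 14.9% lower. S1pr1, a lipid receptor that takes part in flow sensing, was higher by 2.79 ± 0.12 (SE), Trpc6 by 2.56 ± 0.18 and Plxnd1 by 2.22 ± 0.10, while Trpc1 was lower, at -1.62 ± 0.15. On the list from Heg1 and the CCM proteins to MEF2, 3 of 10 genes were higher and 3 lower, where 19.8% of all genes were higher and 14.9% lower; the fit with all classes gave 3 higher and 1 lower. Rasip1, a partner of Heg1 at junctions, was higher by 3.79 ± 0.14 and Map3k3, which encodes MEKK3, by 0.75 ± 0.10, and Mef2c was lower, at -0.88 ± 0.11. Map2k5, which encodes the kinase MEK5, was higher by 0.36 ± 0.09.

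Genes of the response to nitric oxide and endothelin were divided between the classes. Of 7 tested genes of that list, 2 were higher in endothelial-like nuclei: Ece1, which matures endothelin, by 2.89 ± 0.11 (SE), and the receptor gene Ednrb by 3.20 ± 0.20. The other 5 were lower there, as were 14.9% of all genes. In smooth muscle-like nuclei 5 of the 7 were higher and 2 lower, where 21.8% of all genes were higher and 20.6% lower. Gucy1a1, a subunit of the nitric oxide receptor, stood at 646, 621 and 663 CPM in smooth muscle-like nuclei and at 55.2, 48.3 and 54.0 CPM in endothelial-like nuclei, and the endothelin receptor gene Ednra at 186, 178 and 216 CPM against 12.1, 12.1 and 12.9 CPM. Valve interstitial-like nuclei had 48.2, 44.9 and 47.0 CPM of Gucy1a1. Of 7 tested genes of the primary cilium, 0 were higher and 3 lower in endothelial-like nuclei, where 14.9% of all genes were lower, and 4 were higher and 0 lower in valve interstitial-like nuclei, where 18.2% of all genes were higher. Dzip1, a gene of cilium formation, was at -1.81 ± 0.26 in endothelial-like and 1.32 ± 0.17 in valve interstitial-like nuclei, and Kif3a, a motor subunit of transport within cilia, at -0.69 ± 0.11 and 0.64 ± 0.11.

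Within the endothelial-like class, 6 subsets had at least 20 nuclei in each pool. Each is called by its 2 leading genes, since the markers do not assign a vessel or a leaflet side: Enox1 Grid1 (763 nuclei), Cacna2d3 Dlx6os1 (761), Kcnc2 Wnt9b (426), Dlgap2 Cntnap5a (247), Lrp1b Mannr (240) and Pcdh17 Aplnr (234). The members, the listed pathway genes and the immediate early genes took no part in the clustering. The subsets were still drawn from other genes of the same nuclei, so the tests say how the members line up with these clusters. All 10 members differed among the subsets (edgeR F test, adjusted p from 2.8e-15 for Piezo2 to 0.0136 for Pkd2), where 52.7% of 10271 genes did. The Pkd2 call was lost without pool 1 (adjusted p = 0.182), without the block (0.096) and at Leiden resolution 0.5 (0.081), and the other 9 calls held under these alternatives.

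Klf2 and Klf4 peaked in the same subset. Klf2 was at 484, 445 and 227 CPM in the Kcnc2 Wnt9b subset and no higher than 209 CPM in any pool of another subset. It was lowest in the Enox1 Grid1 subset, at 51.4, 102 and 37.4 CPM. Klf4 was at 167, 211 and 180 CPM in Kcnc2 Wnt9b and at 12.5, 22.1 and 18.7 CPM in Enox1 Grid1. For both genes the Kcnc2 Wnt9b pools lay above every other pool. The Enox1 Grid1 pools lay below every other pool for Klf4, but for Klf2 its pool 2 overlapped with Lrp1b Mannr (146, 125 and 98.3 CPM). Against the mean of the other subsets, Kcnc2 Wnt9b was higher by 1.63 ± 0.12 (SE) for Klf2 and 1.99 ± 0.15 for Klf4, and Enox1 Grid1 was at -1.49 ± 0.17 and -2.12 ± 0.22.

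In Kcnc2 Wnt9b, 4 further members were called higher and 0 lower, where 24.3% of all genes were called in either direction. Nos3 was at 440, 366 and 398 CPM there, above every pool of the other 5 subsets (0.90 ± 0.10, SE). Heg1 was higher by 0.88 ± 0.08, with pools of 2983, 2355 and 2456 CPM. Trpv4 was higher by 0.85 ± 0.26 and Piezo1 by 0.35 ± 0.11. The Piezo1 and Trpv4 calls were lost without pool 1 and without pool 2 (edgeR adjusted p = 0.331 and 0.168 for Piezo1, 0.16 and 0.199 for Trpv4), with DESeq2 (0.0553 and 0.0698) and, for Piezo1, without the pool block (0.0676).

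Of 14 tested Klf2 and flow targets, 8 were higher and 2 lower in Kcnc2 Wnt9b, where 24.3% of all genes were called. The summed level of the whole list was 1648, 1667 and 1048 CPM there, which overlapped with Lrp1b Mannr at 1564, 1375 and 1406 CPM. Wnt9b, at 165, 213 and 173 CPM, is one of the naming genes of Kcnc2 Wnt9b, picked for being high there. Plat, which encodes tissue plasminogen activator, was higher by 2.23 ± 0.17 (SE). Gja5 was lower, at -2.31 ± 0.34. The endothelin receptor gene Ednrb was higher by 3.57 ± 0.16.

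Quality measures moved with this subset. The median mitochondrial share of its nuclei was 3.26%, 3.21% and 1.79% in the 3 pools, against 0.99%, 1.31% and 0.97% in Enox1 Grid1. In the Dlgap2 Cntnap5a subset it was 2.70%, 2.20% and 1.95%, lower than in Kcnc2 Wnt9b in pools 1 and 2. The summed level of the immediate early genes was 332 to 377 CPM in Kcnc2 Wnt9b, 296 to 387 CPM in Pcdh17 Aplnr, the subset next in Klf4 (99.8, 122 and 95.7 CPM), 269 to 307 CPM in Dlgap2 Cntnap5a and 120 to 168 CPM in Enox1 Grid1. Among 9 tested immediate early genes, which respond to stress of dissociation as well as to flow, 3 were higher and 0 lower in Kcnc2 Wnt9b, where 24.3% of all genes were called in either direction. In Enox1 Grid1, 0 were higher and 5 lower, where 27.9% of all genes were called. The part of these measures in the Klf2 and Klf4 values was not tested.

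Edn1, which Klf2 is known to lower, had another order. It was at 393, 430 and 485 CPM in Enox1 Grid1, higher there by 1.46 ± 0.15 (SE), and at 66.0, 87.4 and 29.0 CPM in Pcdh17 Aplnr, where it was lower, at -2.0 ± 0.25. In Kcnc2 Wnt9b it stood at 172, 107 and 158 CPM, and the difference of -0.45 ± 0.18 was not called (edgeR adjusted p = 0.0759). In Enox1 Grid1, 27.9% of genes were called, and of the members Piezo2 (-1.73 ± 0.37) and Trpv4 (-1.60 ± 0.33) were lower besides Klf2 and Klf4. For Piezo2 the mean of the other subsets includes Pcdh17 Aplnr, at 249 to 351 CPM. Enox1 Grid1, at 5.01 to 7.94 CPM of Piezo2, overlapped with Cacna2d3 Dlx6os1 (4.87 to 9.77 CPM) and Lrp1b Mannr (0 to 9.62 CPM). The Piezo2 call was lost without pool 1 (adjusted p = 0.0683).

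The Pcdh17 Aplnr subset carried the endothelial Piezo2. Its pools had 249, 296 and 351 CPM of Piezo2, against at most 38.4 CPM in any pool of the other 5 subsets, a difference of 4.81 ± 0.20 (SE). Piezo2 made up 60.2% ± 5.28 of its Piezo UMIs and 3.10% to 7.25% on average in the others. Rgcc, Gpihbp1 and Btnl9, genes known from capillary endothelium, were among its leading genes, as was Piezo2 itself. Klf4 was higher by 0.96 ± 0.19; of 9 tested immediate early genes 3 were higher and 0 lower in this subset, where 28.1% of all genes were called, and their part in the Klf4 value was not tested. Heg1 (-0.97 ± 0.10), Nos3 (-0.66 ± 0.13) and Trpv4 (-1.12 ± 0.42, from 14 UMIs) were lower. The Trpv4 call was lost without pool 1 (adjusted p = 0.402), without pool 3 (0.152), without the block (0.0576) and with DESeq2 (0.0805), and the Nos3 call without pool 1 (0.0502).

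In Dlgap2 Cntnap5a, where 23.2% of genes were called, Heg1 (-1.37 ± 0.10, SE), Klf4 (-1.12 ± 0.25), Nos3 (-1.02 ± 0.13) and Klf2 (-0.58 ± 0.18) were lower, while Piezo1, at 298, 243 and 288 CPM, was higher by 0.49 ± 0.12. The summed level of the endothelial markers was lowest in this subset, at 5258 to 5438 CPM against at least 6105 CPM in every pool of the other 5, and Pdgfra, a gene known from stromal cells, was among its leading genes. The part of these measures in its lower values was not tested. The Klf2 call there was lost without pool 1 (adjusted p = 0.147), without pool 2 (0.105) and without the block (0.0868). In Lrp1b Mannr, which had the arterial genes Gja5 and Sema3g among its leading genes, Heg1 was higher by 0.72 ± 0.09 and Nos3 by 0.56 ± 0.11, where 22.4% of genes were called. Pkd2 was called higher (0.43 ± 0.12) and Piezo2 lower (-1.39 ± 0.49) there, and both calls were lost without pool 1 (adjusted p = 0.079 and 0.112), without pool 3 (0.054 and 0.175) and without the block (0.0522 and 0.0554), and that of Piezo2 also without pool 2 (0.0702). That Piezo2 difference, too, was taken against a mean that includes Pcdh17 Aplnr, and the Lrp1b Mannr range (0 to 9.62 CPM) overlapped with those of Enox1 Grid1 and Cacna2d3 Dlx6os1. In Cacna2d3 Dlx6os1, 7 members were called higher and 2 lower, where 20.3% of genes were called. Trpv4 (1.22 ± 0.23), Edn1 (1.00 ± 0.15), Heg1 (0.69 ± 0.08) and Pkd1 (0.67 ± 0.10) led, and these 4 calls held without any 1 pool, whereas those of Klf2, Klf4, Nos3, Piezo1 and Piezo2 did not (adjusted p without pool 1 = 0.141, 0.735, 0.236, 0.125 and 0.134). With DESeq2 the Klf2 and Klf4 calls were lost as well (0.11 and 0.0927), and without the block that of Klf2 (0.142).

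**Figure D3:**
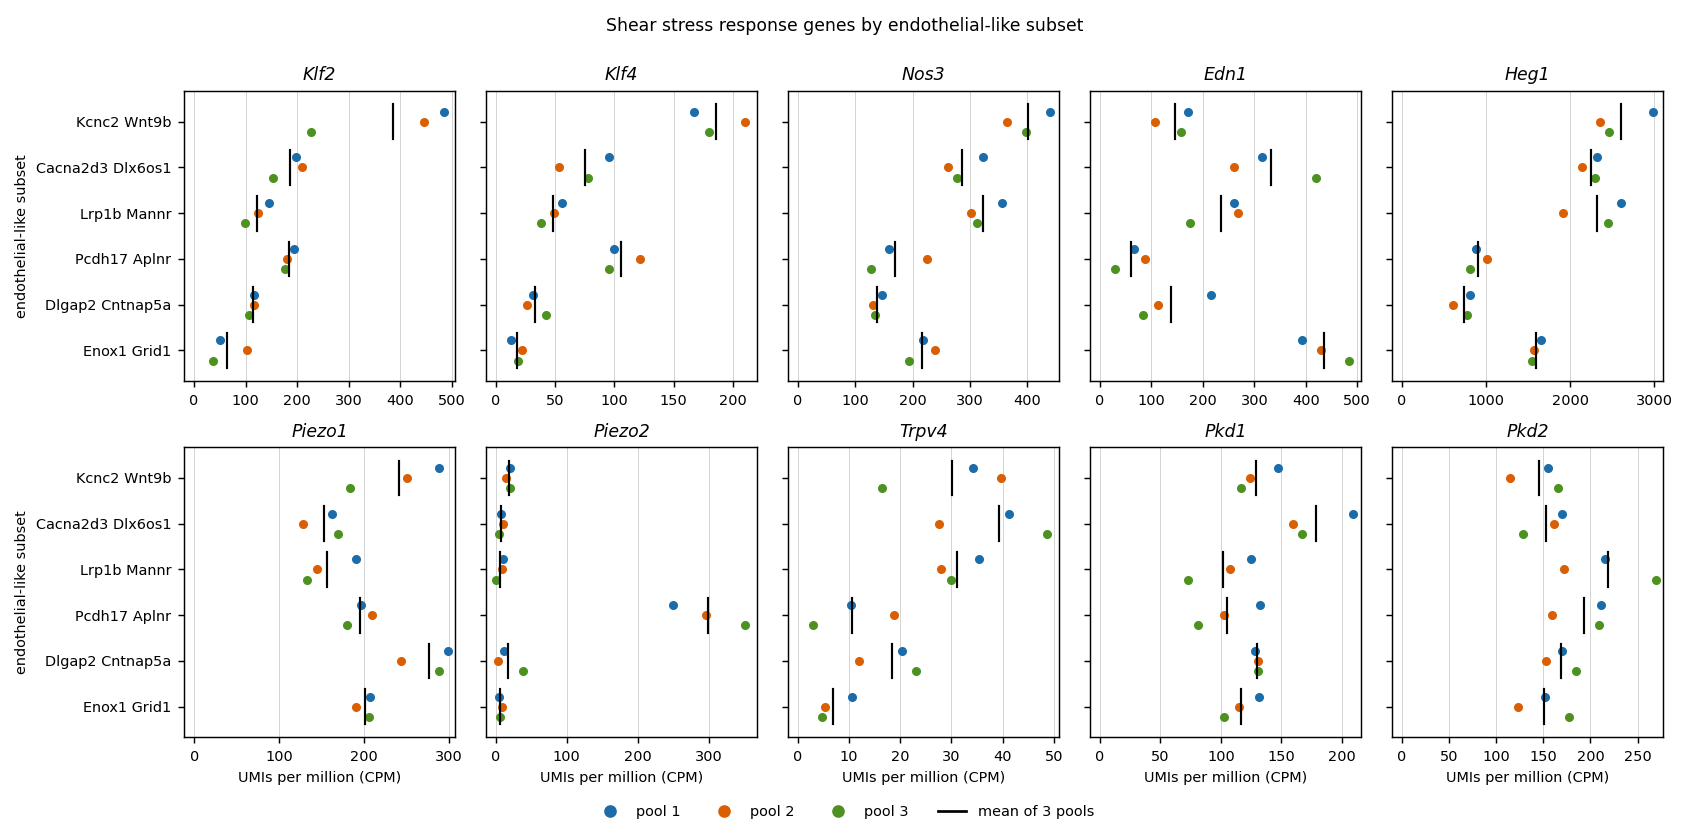
Level of each gene (x axis, CPM; each panel has its own linear scale) in the 6 endothelial-like subsets (y axis), 1 point per pool and a black line at the mean. Klf2 and Klf4 are highest in Kcnc2 Wnt9b and lowest in Enox1 Grid1 (Klf4 at 12.5 to 22.1 CPM), Edn1 is highest in Enox1 Grid1, and Piezo2 stands apart in Pcdh17 Aplnr at 249 to 351 CPM.

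Across the 18 subset and pool libraries, which share pools and depth, the member closest to Nos3 was Heg1, with a Pearson r of 0.96 on log2 CPM, also the closest of all 10271 genes, and Cemip2 came second for both. Klf2 was closest to Gsn (0.91), Klk8 and Crip1, and its r with Klf4 was 0.90. Klf4 was closest to Slc43a3 (0.94), Rhoa and Klk8. Piezo2 was closest to Col15a1 (0.96) and Rgcc, and Edn1 to Khdc4 (0.92). The r of Edn1 with Piezo2 was -0.75. Across the 30 class and pool libraries Klf2 was closest to Bst2 (0.95) and Thbd (0.94), and Nos3 to Rasip1 (0.95), Cyyr1 and Cldn5, the last a junction protein of endothelium. The 30 libraries include the erythroid-like ones, with 0 UMIs of Klf2 and Nos3, and shared absence there can raise r. These values describe likeness of pattern and carry no test.

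Whether members went together within a subset was asked by pairing nuclei. Endothelial-like nuclei with a Klf2 UMI were paired with nuclei without one, of the same pool and subset and the nearest UMI total. This gave 458, 267 and 171 pairs from 516, 326 and 171 nuclei with Klf2, so some nuclei of pools 1 and 2 had no partner. Median UMI totals were 5406 against 4836, 5329 against 4787 and 4034 against 3943, so depth was not equal in pools 1 and 2. Klf2 itself defined the groups and was not tested. Klf4 was higher in nuclei with Klf2 by 1.52, 1.51 and 2.07 in the 3 pools, with a fitted difference of 1.69 ± 0.14 (SE; edgeR adjusted p = 3.6e-05). Nos3 and Heg1 were each higher by 0.39 (adjusted p = 0.00907 and 0.00212), in 3 of 3 pools. Of all 11462 genes, 3.59% were called higher and 1.65% lower.

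Trpv4 (0.69, adjusted p = 0.0622), Edn1 (-0.44, adjusted p = 0.0517) and Piezo1 (0.21, adjusted p = 0.215) were not called. Edn1 was at -0.73, 0.06 and -0.69 in the 3 pools, so pool 2 differed in direction, and Edn1 was called lower without pool 2 (-0.72, adjusted p = 0.000674) and without pool 3 (-0.36, adjusted p = 0.00777). Among pairs whose UMI totals differed by at most 10%, added after the depth gap was seen, Trpv4 (0.93, adjusted p = 0.0281), Piezo1 (0.38, adjusted p = 0.0404) and Piezo2 (-0.75, adjusted p = 0.0391) were called as well. The number of called genes, 601, moved to 136 without pool 1 and to 396 without pool 2. The Nos3 and Heg1 calls were lost without pool 1 (adjusted p = 0.0954 and 0.0545) and that of Nos3 with DESeq2 (0.113), and without the pool block no gene was called (1283 genes had an unadjusted p under 0.05, and Klf4 had an adjusted p of 0.0699).

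The largest rises beside Klf2 were in Nts and Nppc, which encode the peptides neurotensin and C-type natriuretic peptide, by 2.41 ± 0.31 and 2.25 ± 0.46 (SE), followed by Wnt9b (2.07 ± 0.25), Ly6a (1.94 ± 0.22) and Pthlh (1.73 ± 0.22). Among the largest falls were those of A2m (-1.74 ± 0.40), LOC118567328, Gm40604 and Col24a1 (-1.51 ± 0.18). Of 14 tested Klf2 and flow targets 3 were higher (Wnt9b, Thbd and Plat) and Angpt2 was lower, and 1 of 8 immediate early genes, Ier3, was higher. Of all genes tested beside Klf2, 3.59% were higher and 1.65% lower. Wnt9b and Pthlh are also leading genes of the Kcnc2 Wnt9b subset, in which Klf2, Klf4, Nos3 and Heg1 were high. Pairing by subset leaves differences within a subset in place, and their part in the Klf4, Nos3 and Heg1 rises was not tested.

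Nuclei with a Klf4 UMI were paired in the same way (281, 149 and 114 pairs), with median UMI totals of 5773 against 5753, 5853 against 5882 and 4019.5 against 4038. Klf2 was higher in nuclei with Klf4 by 1.64, 1.55 and 1.49 in the 3 pools (fitted 1.59 ± 0.10, SE; edgeR adjusted p = 2.7e-07). Trpv4 was higher by 1.29 ± 0.23, Nos3 by 0.63 ± 0.09 and Heg1 by 0.57 ± 0.09, each in 3 of 3 pools. Edn1 was lower, at -0.79, -0.20 and -1.31 in the pools and -0.72 ± 0.14 in the fit (adjusted p = 0.00446). Of 10645 genes, 5.65% were called higher and 2.62% lower. Piezo1 (0.24 ± 0.10), Pkd1 (0.34 ± 0.12), Pkd2 (-0.02 ± 0.11) and Piezo2 (-0.31 ± 0.24) were not called.

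The count of called genes, 880, moved to 387 without pool 1, to 364 without pool 2 and to 176 without the pool block. The Edn1 call was lost without pool 1 (adjusted p = 0.0638) and without the block (0.0571), and the Heg1 call without the block (0.0644). Wnt7a (4.30 ± 0.68, SE), the metalloprotease gene Adamts8 (3.02 ± 0.24), Nppc (2.83 ± 0.38), Atf3 (2.83 ± 0.46) and Nts (2.75 ± 0.26) rose most, and Kif6, 4930590L20Rik, Rgs7, Ppp4r4 and Cdh18 fell most (-2.24 to -1.68). Of 14 tested Klf2 and flow targets 6 were higher and 0 lower, led by Wnt9b (2.65 ± 0.18), Plat (1.35 ± 0.16), Thbd (1.13 ± 0.13) and Pdgfb (0.98 ± 0.21). Immediate early genes moved with Klf4 too, since 6 of 9 were higher and 0 lower where 5.65% of all genes were higher and 2.62% lower, among them Atf3, Nr4a1 (1.40 ± 0.29), Ier3 (1.37 ± 0.30) and Jun (1.09 ± 0.14). Their part in the differences beside Klf4, and that of differences within a subset, was not tested.

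**Figure D4:**
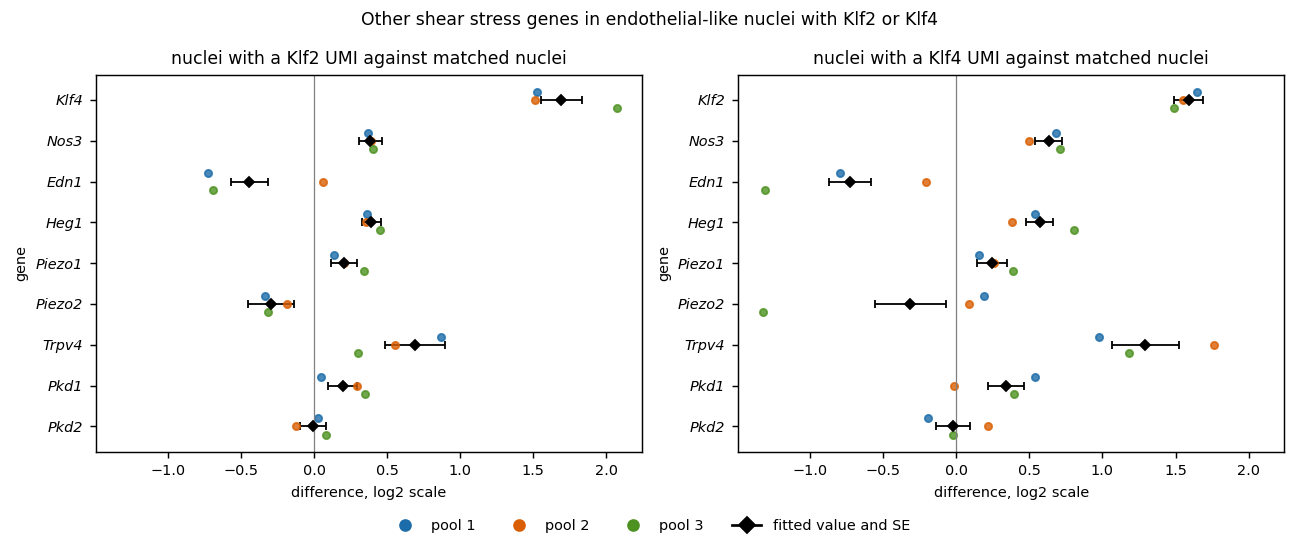
Difference in each other member (y axis) between endothelial-like nuclei with a Klf2 UMI (left) or a Klf4 UMI (right) and paired nuclei without one (x axis, log2 scale), with 1 coloured point per pool and a black diamond with its SE for the fitted value. Klf4 beside Klf2 and Klf2 beside Klf4 lie at 1.49 to 2.07 in every pool, and Nos3 and Heg1 above 0 in 3 of 3 pools in both panels; Edn1 is below 0 in 3 of 3 pools beside Klf4 but not in pool 2 beside Klf2.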

How the data were processed

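Nuclear RNA of 3 pools was measured by single-nucleus RNA-seq. The deposited values are whole UMI counts per feature and nucleus, which the authors made with Cell Ranger: the headers give version 7.1.0, and the submitters' processing notes list 7.0.1 and 7.1.0 with the build GRCm39; the annotation is not given in the sources used here. The members, gene lists and tests were chosen with earlier results of these data known.

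Nuclei with at least 1000 UMIs and at most 5% mitochondrial UMIs were kept. Scrublet (scanpy 1.11.5) marked 0 doublets with its automatic threshold, so the highest scores were removed instead, at 0.8% per 1000 deposited nuclei (598, 155 and 138 nuclei). Counts were scaled to 10000 and log-transformed; 2000 variable genes, 30 components and 15 neighbours gave clusters with leidenalg 0.10.2 at a resolution of 1. Members, pathway and immediate early genes took no part. A cluster was named from at least 3 markers detected in 10% of its nuclei and 2-fold higher.

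Counts were summed per pool and class, subset or matched side and tested with edgeR 4.0.16 (TMM, filterByExpr, quasi-likelihood, pool as block, since the sums of 1 pool come from the same animals and library), adjusted by Benjamini-Hochberg at 0.05. SE is the log2 difference divided by the square root of F. The labels call the pools replicates. With pool as a block, level differences between pools are taken out, so p-values measure how differences between groups vary over the 3 pools. That spread may be partly technical. On simulated counts the class, subset and matched tests recovered 67% to 83% of genes changed 2-fold and 90% to 96.5% of those changed 4-fold, with 4.64% to 7.36% of calls false. The simulated libraries shared a common gene profile apart from the changed genes. In the data 88.8% of genes differed among the classes and 52.7% among the subsets, so these rates may not hold for those tests. Precision is limited by 3 pools and by 17557338 to 34053290 UMIs in the analysed nuclei of a pool.

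Named are all members and genes from among the 4 largest called changes per list, the 5 largest rises and falls with 1 direction in 3 of 3 pools in matched nuclei, and the genes most like each member. The text names only some of the genes this rule allows, and 1 is not reported here. DESeq2 1.42.0, other filters, single pools and other matching were tried as alternatives.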

Additional observations from a re-analysis of the deposited data

How the results depend on the processing

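In endothelial-like nuclei the same 8 members were called under every alternative run, and Pkd2, not called otherwise, reversed to -0.24 without the erythroid-like class. The members called in valve interstitial-like nuclei rose from 5 to 8 with DESeq2 and to 10 without the erythroid-like class, and in smooth muscle-like nuclei from 4 to 7 and to 9. All genes with an unadjusted p under 0.05 rose too. They went from 5182 to 5730 and 5718 in valve interstitial-like nuclei, and from 5877 to 6858 and 6907 in smooth muscle-like nuclei. Reversals in these 2 classes were of members with 0 UMIs in the erythroid-like class, or that were not called, apart from Piezo1 in smooth muscle-like nuclei. Without 1 pool, valve interstitial-like Nos3 ranged from -1.1 to 0.13, Piezo1 from -0.51 to 0.55 and Edn1 from -0.020 to 0.23, and smooth muscle-like Piezo1 from -0.87 to 0.16 and Edn1 from -0.17 to 0.71. Without the lymphatic endothelial-like class, Klf2 was 0.21 and Nos3 0.29 in valve interstitial-like nuclei. Edn1 there was -0.67 with DESeq2, -0.20 with doublets kept, -0.020 without the mitochondrial limit, -0.10 at Leiden resolution 0.5 and -0.92 without the erythroid-like class. In smooth muscle-like nuclei Edn1 was -0.45 with DESeq2 and -0.61 without the erythroid-like class, but 1.58 and called higher with doublets kept (edgeR adjusted p = 0.000978), where Nos3 was 0.50 and Heg1 0.00078. Among uncalled subset values without 1 pool, Cacna2d3 Dlx6os1 Pkd2 ranged from -0.21 to 0.092, Dlgap2 Cntnap5a Piezo2 from -1.39 to 0.093, Pkd1 from -0.15 to 0.15 and Trpv4 from -0.44 to 0.044, Enox1 Grid1 Piezo1 from -0.025 to 0.097, Kcnc2 Wnt9b Piezo2 from -0.11 to 0.20 and Pcdh17 Aplnr Piezo1 from -0.21 to 0.016. The cause was not tested.

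In matched nuclei the number of genes called beside Klf2, 601, became 2039 with matching within pool only, 142 with DESeq2, 381 for pairs within 10% and 136 to 782 without 1 pool. Without the replicate block it was 0 (1283 at an unadjusted p under 0.05; DESeq2 with the block called 142). Beside Klf4, 880 became 192 with DESeq2, 176 without the replicate block and 364 to 1089 without 1 pool. Piezo2 beside Klf2 was 0.19 with matching within pool only, and Pkd2 was 0.00056 without the replicate block and -0.030 to 0.049 without 1 pool. Beside Klf4, Piezo2 ranged from -0.70 to 0.16 and Pkd2 from -0.13 to 0.12 without 1 pool. The number of members that differ between subsets, 10, was 9 without the replicate block, without pool 1 and at Leiden resolution 0.5, where Pkd2 was not called, and the Piezo2 shares moved by less than the spread between pools. Sparse genes limit precision: Trpv4 rests on 361 UMIs in endothelial-like nuclei.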
